A study of Mus musculus with 3 samples.

Results

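Circular RNAs (circRNAs) that carried no identifier from an earlier database made up 220 of the 563 circRNAs (39.1%) listed in the deposited table for plasma exosomes of 3 groups of mice. The study's text gives a larger total, and circRNAs beyond the 563 were not analysed here. They were chosen by the source column of the deposited table, which names circBase for 122 circRNAs, another mouse catalogue for 221 and no earlier database for these 220. No measured level entered that choice. The 343 circRNAs with an identifier are used below only to show where the 220 differed. The data are junction reads from 1 library for each group. Library C1 came from model mice given electroacupuncture (model + EA), library B1 from model mice that were not treated (model), and library A1 from normal mice. All mice were male C57BL/6 mice, and the diabetic model was made by high-fat feeding followed by streptozotocin (STZ), a toxin of the insulin-producing β cells. EA was applied at the acupoints Zusanli and Pishu. How many mice contributed plasma to each library is not stated in the sources that were read. These group names follow the sample titles. The study's own comparisons, in a supplementary table and in the tables of its text, instead rest on C1 as normal, A1 as model and B1 as model + EA. The junction reads cannot tell which assignment is right, so every value is given by library name. The study also measured some circRNAs by qPCR and states that most of these results matched its sequencing. Those qPCR values were not used here.

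A circRNA forms when the spliceosome joins the donor site of an exon to an acceptor site that lies upstream of it in the same gene. The closed circle has no free ends, is cut slowly by exonucleases, and is known to be carried in exosomes, the small vesicles that cells release into blood. A read that spans the back-splice junction counts the circle and not the linear mRNA, unless the joined bases also stand in a linear transcript. In splicing the introns are cut out, most of which begin with GT and end with AG, so an exon usually has AG just before it and GT just after it. The position of both ends relative to annotated exons and the bases beside them are the features by which a junction can be described.

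The junctions of 5 exonic circRNAs without an identifier that stood among the most read or came from the most read hosts are shown as examples of what was counted. The small letters are the last 15 bases of the circle and the capitals the 15 bases at its start, as joined by the back-splice. Bases were taken from GENCODE M21 transcripts on GRCm38, the same assembly as the mm10 positions of the deposited table.
Stam, chr2:14128546-14134441, plus strand, exons 6 to 9: gcctttattgatgagGCTGCAGAACAAGCA
Adam10, chr9:70761583-70761766, plus strand, exon 10: acaactgttttgttgCATGATTCTGGAACA
Pik3cb, chr9:99042524-99090320, minus strand, exons 7 to 22: tgaaaaatttggcagTACATCCGGAATTGT
Map3k7, chr4:32010316-32017152, plus strand, exons 14 to 16: gttactacagagaaaGTGAGCAGCCGGTCA
Arid1a, chr4:133719537-133720999, minus strand, exons 3 to 4: ccctccagcttgcctATTCCACCTTATGGC

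The second set of sequences shows both ends of 5 circRNAs that were listed on the strand of their host gene while the bases beside them had the reverse complement of a splice signal. Each stretch holds 15 bases outside and 15 bases inside the circle, read 5′ to 3′ on the host strand. The capitals mark AC just before the circle and CT just after it, which on the opposite strand read as GT and AG.
Ankfy1, 5′ end, chr11:72767565-72767594, plus strand: attataaagtttgACctgaacaagcctgtg
Ankfy1, 3′ end, chr11:72767884-72767913, plus strand: tgtgataggaattggCTagcagcacacaag
Hbb-bs, 5′ end, chr7:103827898-103827927, minus strand: acatttgcttctgACatagttgtgttgact
Hbb-bs, 3′ end, chr7:103826595-103826624, minus strand: ttcccaagagagcatCTgtcagttgttggc
C1galt1, 5′ end, chr6:7866720-7866749, plus strand: gaacaacccatttACtttgggcgaagattt
C1galt1, 3′ end, chr6:7871372-7871401, plus strand: atggatgactataaaCTgaagcatttaaag
Wdr26, 5′ end, chr1:181174574-181174603, minus strand: gcctcccttgggtACacgtcttgcacatct
Wdr26, 3′ end, chr1:181174365-181174394, minus strand: tttccaaaaccatacCTgatttcacataaa
Plagl1, 5′ end, chr10:13130557-13130586, plus strand: catatatctcctaACctttgaagactctgt
Plagl1, 3′ end, chr10:13131021-13131050, plus strand: catatatctcctaacCTttgatgactctgt

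The third set shows 4 circRNAs of the same annotated type whose capitals are the usual AG before and GT after the circle on the host strand.
Stag2, 5′ end, chrX:42217401-42217430, plus strand: aatttctttattcAGtgctcaggctgcaaa
Stag2, 3′ end, chrX:42250023-42250052, plus strand: gatgacgcatatcagGTattgtcaacattg
Clic4, 5′ end, chr4:135216962-135216991, minus strand: aagactaggagtaAGgctagacagagtagg
Clic4, 3′ end, chr4:135214445-135214474, minus strand: ttatacttttcctgaGTtatactcccagaa
Anxa2, 5′ end, chr9:69487548-69487577, plus strand: cttagtgttcgaaAGgtacaagagctacag
Anxa2, 3′ end, chr9:69489691-69489720, plus strand: gtctctcgcagtgaaGTggacatgctgaaa
Fubp1, 5′ end, chr3:152234487-152234516, plus strand: attaattgcaaacAGtgcaattatttatac
Fubp1, 3′ end, chr3:152236679-152236708, plus strand: cagcttggacttgagGTaaattgaatactt

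The libraries were shallow. Junction reads added up to 2913 in C1, 4372 in B1 and 4125 in A1, over 320, 140 and 157 circRNAs found with at least 1 read. A count of 0 therefore allows a share of up to 0.103%, 0.0686% and 0.0727% of the junction reads of these libraries (3 reads of each total). C1 had the fewest reads and the most circRNAs. With 1 library per group there is no spread between samples and no test between groups. Shares are given with exact (Clopper-Pearson) 95% intervals, which cover counting error only, since the reads carried no molecular identifiers and circRNAs of 1 library are not replicates.

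The circRNAs without an identifier differed from the others most plainly in type. The table sorts circRNAs into exonic, sense overlapping and intronic ones. Exonic names ends that lie at exons, and sense overlapping names overlap with a host on the same strand. The types do not follow exon edges strictly. Both ends lay at GENCODE M21 edges of any transcript for 3 sense overlapping circRNAs without an identifier. With an identifier this held for 5 sense overlapping and 2 intronic ones. Exonic circRNAs made up 139 of the 220 without an identifier (63.2%, 56.4% to 69.6%) and 322 of the 343 with one (93.9%, 90.8% to 96.2%). Sense overlapping circRNAs made up 53 (24.1%, 18.6% to 30.3%) and 17 (4.96%, 2.91% to 7.82%). Intronic circRNAs made up 28 (12.7%, 8.63% to 17.9%) and 4 (1.17%, 0.319% to 2.96%). For each type the intervals of both sets lay apart. Most of the sense overlapping and intronic circRNAs of the whole table were thus without an identifier.

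The same order of the sets was seen in each library. In C1 76 of 126 circRNAs without an identifier were exonic (60.3%, 51.2% to 68.9%), and 182 of 194 with one (93.8%, 89.4% to 96.8%). In B1 these numbers were 26 of 49 (53.1%, 38.3% to 67.5%) and 81 of 91 (89.0%, 80.7% to 94.6%). In A1 they were 39 of 53 (73.6%, 59.7% to 84.7%) and 100 of 104 (96.2%, 90.4% to 98.9%). The exonic share without an identifier was lowest in B1 and highest in A1, but its intervals overlapped between all 3 libraries. The libraries hold largely different circRNAs, so these are nearly separate sets.

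**Figure D1:**
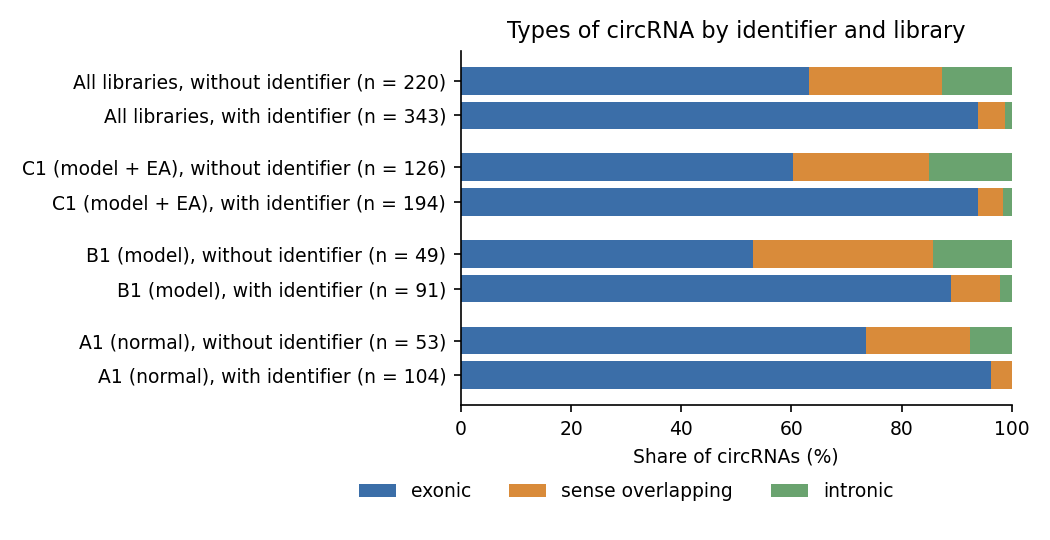
Share of circRNAs of each type, in percent, for those without and with an identifier, over all libraries and in each library (n beside each bar is the number of circRNAs). The exonic part is shorter without an identifier in every pair of bars, at 63.2% against 93.9% over all libraries.

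Where the ends lay was read from the exons of GENCODE M21. Both ends fell exactly on exon edges of 1 transcript for 140 of the 220 circRNAs without an identifier (63.6%, 56.9% to 70.0%), and for 322 of the 343 with one (93.9%, 90.8% to 96.2%). All 139 exonic circRNAs without an identifier were among the 140, and among exonic circRNAs with an identifier the match held for 320 of 322. The exonic type itself rests on ends that lie at exons, so this match largely follows from the type. The one further circRNA of the 140 was that of Zcchc6 (chr13:59802016-59803111), which the table calls sense overlapping. Just 1 end at an edge was found for 42 (19.1%, 14.1% to 24.9%) without an identifier and 14 (4.08%, 2.25% to 6.75%) with one. No end at an edge was found for 36 (16.4%, 11.7% to 21.9%) and for 1 (0.292%, 0.00738% to 1.61%).

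In the 42 circRNAs with 1 end at an edge, the other end lay 1 to 29789 nt from the nearest edge, with a median of 289 nt. For 5 of them the distance was at most 5 nt. These were the circRNAs of Psmd14, a deubiquitinase subunit of the proteasome, at 1 nt, both of Zfp207 and the longer one of Sox6 at 3 nt, and that of Smn1, which acts in assembly of spliceosomal particles, at 4 nt. For 16 of the 42 the distance was over 1000 nt. Of the 28 intronic circRNAs 10 had 1 end at an edge and 18 had none, and in these 18 the nearer end lay 271 to 59396 nt from an edge. The farthest was that of Pdgfd (chr9:6228057-6228729), a growth factor gene. A single row, that of Adcy9, had no annotated gene on its strand and was left out of distances.

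**Figure D2:**
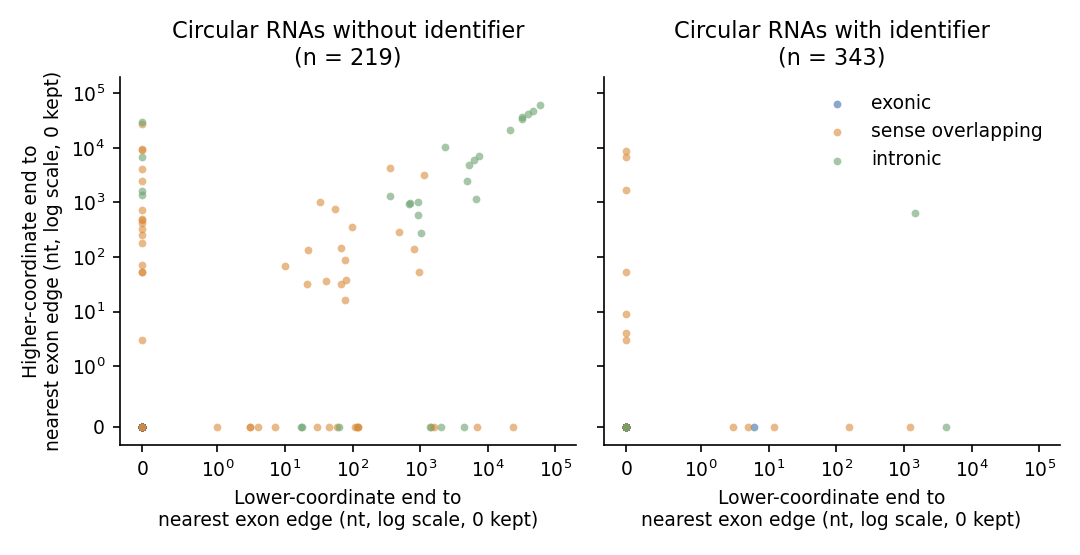
Distance of each end to the nearest annotated exon edge, in nt on a log scale that keeps 0, for 219 circRNAs without an identifier (left) and 343 with one (right), coloured by type, each point 1 circRNA. Points off both axes have no end at an edge, and there are 35 of them on the left, Adcy9 being left out, and 1 on the right.

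The 140 circRNAs with both ends at edges were mostly short stretches of coding exons. They held 1 exon in 10 cases, 2 in 42, 3 in 38, 4 in 18, 5 in 14 and 6 or more in 18. The median was 3 exons, as in the 322 such circRNAs with an identifier. Only coding sequence was held by 112, the 5′ UTR and coding sequence by 25, and coding sequence with part of the 3′ UTR by 3, those of Zcchc6, Tacc1 and Oxsr1. Their lower exon was exon 2 in 53 of 140, against 123 of 322 with an identifier. A single one was numbered from exon 1, that of Casc5 (chr2:119057281-119081625, exons 1 to 11), a kinetochore scaffold. This number depends on the transcript matched, since the same start is exon 2 for the other Casc5 circRNA. None of the 140 held the last exon, nor did any of the 322. The summed exon length equalled the predicted length of the table for 135 of the 140.

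The median predicted length was 475 nt (order-statistic 95% interval 416 to 567) without and 427 nt (374 to 453) with an identifier. Among exonic circRNAs it was 362 nt (332 to 402) and 395 nt (361 to 435). Both pairs of intervals overlapped. Sense overlapping circRNAs without an identifier had a median of 4652 nt, and intronic ones of 1236 nt. These last lengths are no measurement of the molecule. For all 53 sense overlapping and all 28 intronic circRNAs the table gives the whole genomic distance between the ends as the length, introns included. Over all types this held for 91 of 220 (41.4%) without and 48 of 343 (13.99%) with an identifier.

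The lengths at the extremes show this. The longest was that of Sox6, a transcription factor of red cell and chondrocyte development, at 99911 nt (chr7:115701696-115801606). It had 12 reads in C1 and 0 in B1 and A1. The next longest spans were those of Jarid2, a Polycomb cofactor, at 91803 nt with a predicted length of 340 nt over exons 2 and 3, and Ncoa7 at 69869 nt. The shortest spans were single exons 2 of Glcci1 at 152 nt, Phf3 at 162 nt and Zfp949 at 169 nt, with 3, 7 and 10 reads in C1 and 0 in the other libraries. The shortest predicted length was 110 nt, for a circRNA of AB124611.

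**Figure D3:**
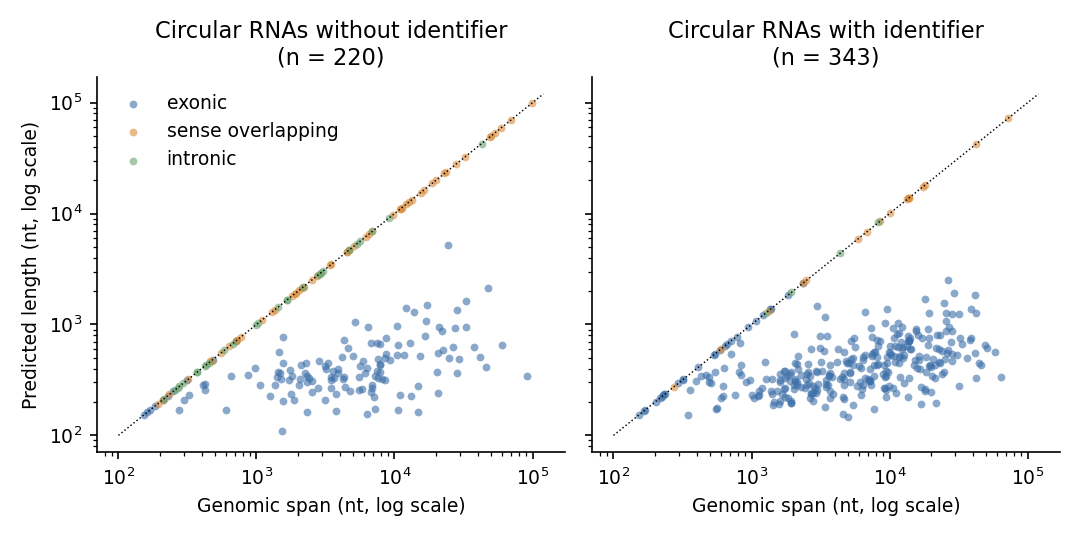
Predicted length against genomic span, both in nt on log scales, for 220 circRNAs without an identifier (left) and 343 with one (right), coloured by type. The dotted line marks equal values, and all sense overlapping and intronic points lie on it.

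The bases beside the ends were examined for circRNAs whose ends lay away from annotated edges. No genome sequence was used. Outer bases could be read only where an annotated exon, also one of the host, or a RefSeq promoter covered them. That was possible for 26 of the 220 circRNAs without an identifier (11.8%) and for 17 of the 343 with one (4.96%), which is too few for a statement on either set. It was possible, however, for 15 of the 18 sense overlapping circRNAs without an identifier that had no end at an edge (83.3%). The motif searched was AG before and GT after the circle on the host strand, or its reverse complement, AC before and CT after. All 15 had one or the other. The host strand carried it in 7 and the opposite strand in 8. All 17 readable circRNAs with an identifier and all 4 readable sense overlapping ones with 1 end at an edge had it on the host strand. Each of these had at least 1 end at an annotated exon edge, where a signal on the host strand is largely given by the annotation. No circRNA with an identifier was sense overlapping with no end at an edge, so the 15 had no counterpart to be set beside. The intronic circRNA of Ahnak, which had 0 reads in C1, 15 in B1 and 0 in A1, had it on the opposite strand. A match describes letters only and does not show that a splice took place. Whether the authors' detection of junctions kept only ends with such bases is not stated and was not tested. No meaning is therefore drawn from a match in all 15.

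The 8 on the opposite strand were mostly found in B1. They comprised Ankfy1 (56 reads), an endosomal effector of Rab5, Hbb-bs (43), an adult β globin, C1galt1 (35), which extends O-linked glycans, Wdr26 (21), a ubiquitin ligase subunit, Plagl1 (20), a zinc finger factor, and Gpbp1 (3), each with these reads in B1 and 0 in C1 and A1. Ahcyl1, an inhibitor of the IP3 receptor, had 19 reads in A1 and 0 in C1 and B1. A stretch of the mitochondrial genome, chrM:124-1930, had 10 reads in C1 and 0 in B1 and A1. Ankfy1 was also the most read circRNA without an identifier in B1, with 1.28% (0.969% to 1.66%) of its junction reads.

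The 7 on the host strand were mostly found in C1. They comprised Anxa2 (11 reads), a membrane-binding annexin, Fubp1 (10), a factor that binds single-stranded DNA, Gapvd1 (6), a Rab5 exchange factor, Slc25a37 (5), the mitochondrial iron importer of erythroid cells, and chrM:1900-2536 (14), each with these reads in C1 and 0 in B1 and A1. Clic4 had 20 reads in B1 and 0 in C1 and A1. Stag2, a cohesin subunit, had 34 reads in A1 and 0 in C1 and B1. By library the opposite and host strand counts were 1 and 5 in C1, 6 and 1 in B1, and 1 and 1 in A1. Summed reads were 10 on the opposite and 46 on the host strand in C1, 178 and 20 in B1, and 19 and 34 in A1. Libraries and groups cannot be told apart here, and whether strand calling differed between libraries was not tested.

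**Figure D4:**
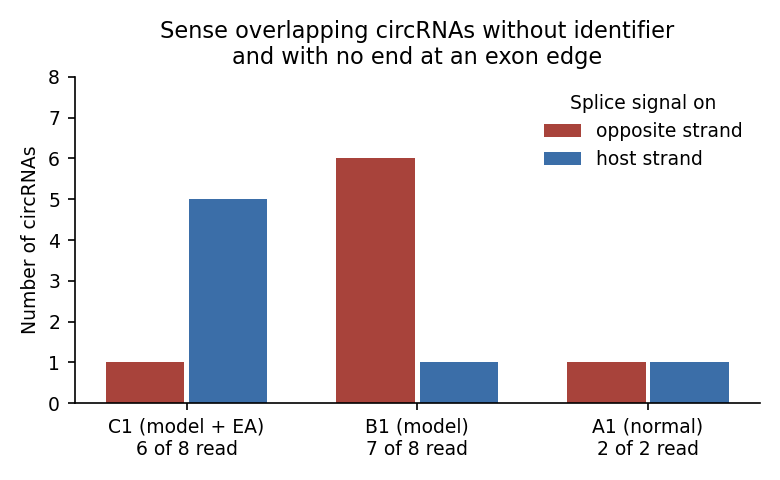
Number of sense overlapping circRNAs without an identifier and with no end at an exon edge, by library and by the strand whose bases match a splice signal, with the number readable under each library. In B1 6 of 7 readable circRNAs have the signal on the opposite strand, in C1 1 of 6.

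Plagl1 also had a repeat across its ends. The same 26 bases lie at both ends of the circle, shown in capitals.
Plagl1, repeat at the 5′ end, chr10:13130550-13130579, plus strand: tcCCCAGCATATATCTCCTAACCTTTGAag
Plagl1, repeat at the 3′ end, chr10:13131014-13131043, plus strand: ttCCCAGCATATATCTCCTAACCTTTGAtg
The joined junction of 30 bases therefore also stands in the linear Plagl1 transcript, though not when 60 bases were compared. The AC and the CT beside the Plagl1 circle both lie inside the repeat. The junction could be placed elsewhere within the repeat, so counting Plagl1 on the opposite strand rests on the placement listed.

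The joined 30 bases could be assembled for 176 of the 220 circRNAs without an identifier (80%) and for 338 of the 343 with one (98.5%). They were found in a linear transcript for 3 without an identifier and for 0 with one. Besides Plagl1 these were the globin rows, and for both the match also held over 60 bases. The globin genes are the main products of red cell precursors, and both lie in clusters of near-identical copies.
Hba-a1, chr11:32284263-32296945, plus strand, also in linear Hba-a1 and Hba-a2: cccgtcaacttcaagCTCCTGAGCCACTGC
Hbb-bt, chr7:103813439-103826793, minus strand, also in linear Hbb-bs and Hbb-bt: cctgagaacttcaggCTCCTGGGCAATATG
Both rows span from one copy of the gene to the other, over 12683 and 13355 nt, and each end lay at an exon edge, but of different transcripts. A read with these bases cannot be told apart from one of the ordinary spliced globin mRNA. The Hba-a1 row had 1 read in C1, 2 in B1 and 2 in A1. The Hbb-bt row had 3 reads in C1, 5 in B1 and 4 in A1. They were the only circRNAs without an identifier found in all 3 libraries, and the exact intervals of their ratios between libraries all included 1.

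Each library held its own circRNAs without an identifier. C1 held 126 of them, 39.4% (33.99% to 45.0%) of its 320 circRNAs. B1 held 49, 35% (27.1% to 43.5%) of 140, and A1 held 53, 33.8% (26.4% to 41.7%) of 157. These intervals overlapped. Of the junction reads they took 38.8% (37.0% to 40.6%) in C1, 30.8% (29.4% to 32.2%) in B1 and 28% (26.6% to 29.4%) in A1. The interval of the read share of C1 lay above those of B1 and A1, but these intervals take each read as independent. Without molecular identifiers or replicate libraries, repeated reads of the same molecule and the spread between mice are not known.

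Levels of single circRNAs varied more between libraries than between the sets. The median of those found was 7.5 reads without and 7 with an identifier in C1, 31 and 34 in B1, and 22 and 28 in A1. At least 20 reads were reached by 11 of 126 without an identifier (8.73%) and 13 of 194 with one (6.70%) in C1. In B1 these were 33 of 49 (67.3%) and 73 of 91 (80.2%), and in A1 30 of 53 (56.6%) and 70 of 104 (67.3%). The highest count without an identifier was 29 in C1, 56 in B1 and 45 in A1, against 56, 92 and 131 with one. The levels of the types within the circRNAs without an identifier lay close together in C1 and A1, while in B1 the sense overlapping ones had the lowest median. Medians were 7.5 reads for exonic, 8 for sense overlapping and 7 for intronic in C1, 32, 20.5 and 35 in B1, and 22, 21.5 and 24 in A1.

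**Figure D5:**
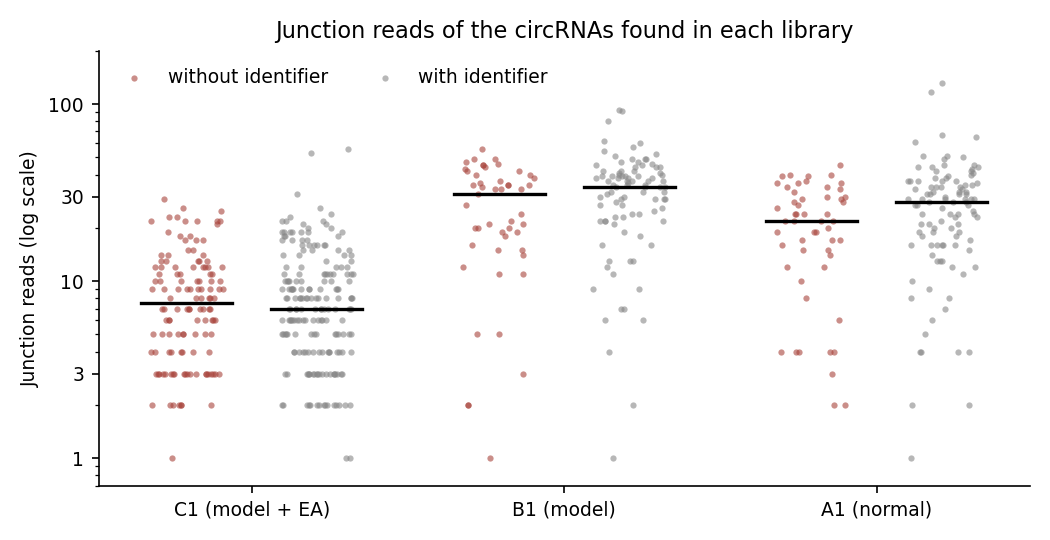
Junction reads on a log scale of each circRNA found in a library, without an identifier (red) and with one (grey), with the median as a bar. Medians are 7.5 and 7 in C1, 31 and 34 in B1, and 22 and 28 in A1, so both sets follow the level of their library.

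In C1 the 5 most read circRNAs without an identifier were exonic. Stam, whose product sorts ubiquitinated receptors on endosomes and belongs to the ESCRT-0 complex, had 29 reads in C1 (0.996%, 0.668% to 1.43%) and 0 in B1 and A1. Smarcc1, a core subunit of the SWI/SNF remodeler, had 26, and Setd3, an actin histidine methyltransferase, had 25. Arih1, a ubiquitin ligase, and Cenpi, a centromere protein, had 23 each. The next 5 were tied at 22 reads, and they were Cdc45, part of the replicative helicase, and Dcun1d1, both exonic, and the intronic rows of Rbm39, Nfia and chr2:110032332-110075111. All of these had 0 reads in B1 and A1.

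In B1 all 3 types stood among the leading ones. After Ankfy1 came Adam10, a sheddase of membrane proteins, with an intronic circRNA at chr9:70701275-70703437 that had 49 reads in B1 and 0 in C1 and A1. A separate circRNA of exon 10 of the same gene had 33 reads in B1 and 0 in C1 and A1. Pik3cb, the catalytic subunit β of PI3K, had 49 (1.12%, 0.830% to 1.48%), Sox6 47 from exons 11 to 14, Eif4g3, a translation initiation scaffold, 46, and Iqgap2, an actin scaffold, 45, as had the intronic row of Adnp, all with 0 in C1 and A1.

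In A1 the leading circRNA was that of Map3k7, the kinase TAK1, with 45 reads in A1 (1.09%, 0.797% to 1.46%) and 0 in C1 and B1. Prpsap2, which associates with the enzyme of phosphoribosyl pyrophosphate synthesis, and Arid1a, a SWI/SNF subunit, had 40 each. Tsc2, an inhibitor of mTORC1, and Inpp4b, a phosphoinositide phosphatase, had 39 each. Gp6, the collagen receptor of platelets, had 37, from a sense overlapping row with 1 end at an edge. Each of these had 0 reads in C1 and B1. By counting alone, the intervals of these 6 overlapped, so their order within A1 is not resolved.

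Reads in more than 1 library were rare. They were seen for 6 of 220 circRNAs without an identifier (2.73%, 1.01% to 5.84%) and for 37 of 343 with one (10.8%, 7.71% to 14.6%), and these intervals lay apart. Besides the globin rows the 6 were Pdgfd, Atp8a1, Plcl2 and Rnf216. Without the globin rows, which match linear mRNA, 4 remain.

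Pdgfd had 4 reads in C1, 40 in B1 and 0 in A1. On the counts scaled by the authors' factors this was 0.0966 times (exact 95% interval 0.0251 to 0.267) as many in C1 as in B1, and at least 10.8-fold higher in B1 than in A1, taking 3 reads for 0. Atp8a1, a phospholipid flippase, had 5 reads in C1, 0 in B1 and 17 in A1, or 0.231 times (0.0665 to 0.651) as many in C1 as in A1. Both intervals excluded 1, with each read taken as independent. Plcl2, an inactive phospholipase C-like protein, had 9 reads in C1, 11 in B1 and 0 in A1, a ratio of 0.791 (0.290 to 2.10) of C1 to B1 that includes 1. Rnf216, a ubiquitin ligase, had 9 reads in C1, 1 in B1 and 0 in A1, a ratio of 8.70 (1.21 to 381) of C1 to B1 that is hardly bounded from above.

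The study's methods ask for a 2-fold difference of model + EA from both other groups. Here the same threshold was applied to each pair of libraries on its own, with 0.1 reads in place of 0 as in the deposited normalized values. In this way 122 of the 220 were higher in C1 (model + EA) than in B1 (model), 55.5% beside 51.7% of all 563 circRNAs, and 46 were lower, 20.9% beside 23.1%. In either direction these were 168, or 76.4% beside 74.8%. In B1 (model) against A1 (normal) 47 were higher, 21.4% beside 22.6%, and 51 lower, 23.2% beside 25.9%, together 98 or 44.5% beside 48.5%. In C1 (model + EA) against A1 (normal) 123 were higher, 55.9% beside 53.6%, and 52 lower, 23.6% beside 27%, together 175 or 79.5% beside 80.6%. The shares of the circRNAs without an identifier stayed near those of the whole table in all 3 comparisons, which share libraries. In nearly every case the call meant reads in 1 library and 0 in the other. Reads in both libraries were seen for 5, 2 and 3 circRNAs in the 3 comparisons, of which 3, 0 and 2 were called. Under the assignment of libraries to groups in the study's tables the direction turned for most circRNAs called under both, as given in the closing part.

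The size of such a difference is limited by depth. Stam was at least 9.34-fold higher in C1 than in B1 and at least 7.58-fold higher in C1 than in A1. Ankfy1 was at least 19.3-fold lower in C1 than in B1 and at least 15.1-fold higher in B1 than in A1. Map3k7 was at least 18.5-fold lower in B1 than in A1 and at least 19.1-fold lower in C1 than in A1. Each bound takes 3 reads for 0 and the other count as exact.

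The 220 circRNAs came from 200 named host genes, and 185 of these gave a single one. 15 hosts gave 2 or 3, 32 circRNAs in all. Epb4.1, the membrane skeleton protein 4.1 of red cells, gave 3, with 19, 13 and 6 reads in C1 and 0 in B1 and A1. The one with 19 reads was a single exon 2, the one with 13 reads ran over exons 2 to 12, and the one with 6 reads over exons 16 to 19. Glcci1 also gave 3, which shared the start of exon 2. The one of exon 2 alone had 3 reads and the one of exons 2 to 5 had 2 reads, both in C1, while that of exons 2 to 3 had 22 reads in A1. Hosts were thus shared in both ways, with all circRNAs in 1 library or in different ones.

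Other hosts with several followed one of these patterns. Ncoa7 (18 and 9 reads), Rock2 (17 and 12), Btrc (12 and 7), Casc5 (7 and 6), Slc25a37 (21 and 5) and Gm10800 (8 and 3) had reads in C1 and 0 in B1 and A1. Adam10 (49 and 33) had them in B1 alone. Sox6 had 12 reads for one circRNA in C1 and 47 for the other in B1. Nusap1, a microtubule protein of the spindle, had 3 reads for exons 4 to 5 in C1 and 36 for exons 5 to 6 in A1. Zfp207 had 3 reads for the longer one in C1 and 18 for the shorter one in B1. Mllt10 had 3 reads for an intronic circRNA in C1 and 3 for an exonic one in A1. Plcl2 gave, besides the row above, a shorter one with 2 reads in C1. Srgap2 gave 2 intronic rows of 370 nt, 5 nt apart at both ends, each with 24 reads in A1 and 0 in C1 and B1. They were the only rows within 10 nt of each other, so that they may be 1 junction placed in different ways was not tested.

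Hosts and ends were compared with those of the 343 circRNAs with an identifier in these libraries, and not with the databases themselves. One of the 343 came from the same host for 35 of the 220 (15.9%, 11.3% to 21.4%), while 92 of the 343 with an identifier (26.8%, 22.2% to 31.8%) shared their host with another that has one. An end was shared by 7 (3.18%, 1.29% to 6.45%) and by 57 (16.6%, 12.8% to 20.99%). For both measures the intervals lay apart. Against circBase alone the shares without an identifier were 3.64% and 0.909%. Among exonic circRNAs alone the host was shared in this way by 25 of 139 without an identifier (17.99%, 11.99% to 25.4%). With an identifier it was shared by 86 of 322 (26.7%, 21.95% to 31.9%), and these intervals overlapped. The contrast in shared hosts is thus not separated from the difference in type. Shared ends were not compared within types.

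The 7 that shared an end can be set beside their partners. Erbb2ip, a scaffold of the receptor ERBB2, had 19 reads in B1 and 0 in C1 and A1, and its partner with an identifier 21 in C1, 9 in B1 and 65 in A1. Arid1a had 40 reads in A1 and 0 in C1 and B1, its partner 7 in B1 and 0 in C1 and A1. Med12l, a Mediator kinase module subunit, had 12 in A1 and 0 in C1 and B1, its partner 1 in C1, 52 in B1 and 67 in A1. The longer circle was the one without an identifier for Erbb2ip, and the shorter one for Arid1a and Med12l. Zcchc8, of the nuclear exosome targeting complex, had 6 in A1 and 0 in C1 and B1, its partner 3 in C1, 42 in B1 and 0 in A1. In Casc5 (7 reads), Diap3, a formin (5), and Kif23, a kinesin of cytokinesis (3), both the circRNA and its partner were found in C1 alone, the partners with 8, 17 and 12 reads. A common library was seen for 5 of the 7 pairs.

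For 3 circRNAs the table gave no host symbol. One at chr2:110032332-110075111 had 22 reads in C1 and 0 in B1 and A1 and lay in Ccdc34 by the annotation used here. One at chr13:107081046-107090225 had 16 reads in B1 and 0 in C1 and A1 and lay in Gm31452. One at chr12:3476949-3477206 had 24 reads in A1 and 0 in C1 and B1 and lay in Asxl2. All 3 were called intronic.

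The hosts were sorted by role with lists that were written with the hosts in view, so their counts describe these circRNAs and cannot be set against the rest. Mitosis and chromosome segregation gave 23 circRNAs, 16 of them found in C1, 1 in B1 and 6 in A1, with 139, 33 and 142 reads. The leading ones were Nusap1 (36 reads), Stag2 (34) and Kif14, a kinesin of cytokinesis (30), in A1, Depdc1b (33) in B1, and Cenpi (23) and Cdc45 (22) in C1. The list of chromatin and transcription regulators gave 24, with 14 in C1, 5 in B1 and 5 in A1 and 187, 137 and 95 reads. Those listed were led by Adnp (45 reads) and Atad2 (35) in B1, Arid1a (40) and Lin54, of the DREAM complex (28), in A1, and Smarcc1 (26) and Setd3 (25) in C1. Each had 0 reads in the other libraries. The lists are broad, since Cdc45 acts in DNA replication and Setd3 modifies actin, as described above. They are also incomplete. Sox6 (47 reads in B1) and Plagl1 (20 in B1), described above as transcription and zinc finger factors, were not on the chromatin and transcription list.

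Phosphoinositide, PI3K and mTOR signaling, which carries the insulin signal in many tissues, gave 10 circRNAs, with 3 found in C1, 2 in B1 and 6 in A1 and 14, 60 and 140 reads. Besides Pik3cb in B1 and Tsc2 and Inpp4b in A1 they included Pip5k1b, which makes PI(4,5)P2 (26 reads), Dapp1, an adaptor that binds PI3K products (17), and Prkca, the protein kinase C α (15), in A1 alone. The list of the ubiquitin and SUMO pathway gave 15, with 12 in C1, 1 in B1 and 3 in A1 and 145, 1 and 59 reads. Birc6 (33 reads) and Ube2d2a (22) were found in A1, and Arih1 (23), Dcun1d1, a factor of neddylation (22), and Btrc (12) in C1. The single listed one in B1 was that of Rnf216, with 1 read. Wdr26 (21 reads in B1), described above as a ubiquitin ligase subunit, was not on the list, so these counts leave it out.

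RNA binding, splicing and decay gave 19, with 10 in C1, 5 in B1 and 4 in A1 and 77, 85 and 45 reads. Examples are Eif4g3 (46 reads) in B1, Ddx46, a spliceosomal helicase (29), in A1, and Rbm39 (22) and Cpsf7, a cleavage factor (13), in C1. Actin, spectrin and adhesion gave 21, with 12 in C1, 5 in B1 and 4 in A1 and 116, 139 and 98 reads. They included Iqgap2 (45) and Fyb, an adaptor of T cells (40), in B1, Cttn, the actin-binding cortactin (28), and Scin, an actin-severing protein (22), in A1, and Epb4.1 (19) in C1. Membrane and vesicle traffic gave 18, with 9 in C1, 7 in B1 and 3 in A1 and 83, 222 and 25 reads. Besides Ankfy1, Atg4c, an autophagy protease (44), Lrba (35), Rab14 (31) and Tmem41b (21) were found in B1. Chmp4b (7 reads in C1) and Ist1 (15 reads in B1), both of the ESCRT-III machinery that also acts in vesicle budding, were named after their values were seen.

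Hosts that mark a cell type were few. Erythroid hosts gave 11 circRNAs, with 9 found in C1, 4 in B1 and 2 in A1 and 83, 92 and 6 reads. They were the globin rows, Hbb-bs (43 reads) and Slc43a1, an amino acid transporter (42), in B1, and Slc25a37, Epb4.1, Car2, the red cell carbonic anhydrase (12), and Ank1, ankyrin 1 (3), in C1. The 2 found in A1, with all 6 reads there, were the Hba-a1 and Hbb-bt rows, which match linear mRNA. Hbb-bs had its splice signal on the opposite strand. Platelet hosts gave 1, that of Gp6, B cell hosts 1, that of Dapp1, and T and NK cell hosts 2, Fyb (40 reads in B1) and Ptpn22 (27 in A1). The lists of the endothelium, muscle, fat cells, hepatocytes, myeloid cells and the pancreas (islet and acinar) gave 0 circRNAs, with or without an identifier. The counting was aimed at circular junctions, so 0 here says nothing on linear mRNA of these cells. In bulk exosome RNA, fewer vesicles from a cell type and less of a circRNA per vesicle cannot be told apart.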

How the data were processed

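Junction reads of circRNAs from plasma exosomes were analysed in 3 libraries, 1 for each group. Exosomal RNA was depleted of rRNA and made into stranded libraries that were sequenced in paired-end mode. According to the methods and the processing notes, the authors used cutadapt (v1.9.3) for trimming, STAR (v2.5.1b) for alignment to mm10, DCC to detect junctions, and circBase for annotation. The count of junction reads per circRNA and library is used as the authors deposited it. The log2 normalized values deposited by the authors are log2 counts after multiplication by a factor for each library (1 for C1, 1.03 for B1, 1.28 for A1), with 0.1 reads in place of 0. The sources do not state what the factors rest on or which filters were applied. Starts in the table count from 0 and are given here from 1.

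Ends were compared with exon edges of GENCODE M21, and bases were read from its transcripts and from RefSeq promoters on the same assembly. Exact 95% intervals of ratios come from how the reads divide between both libraries, and a fold against 0 is a bound against 3 reads. Simulated data with known folds were used to check calls and intervals. The analysis used Python 3.11.15, pandas 2.3.3 and SciPy 1.17.1, with edgeR 4.0.16 and DESeq2 1.42.0 for scaling factors alone.

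The circRNAs, lists and rules were chosen with earlier results of these data known. Named circRNAs are the 6 with the most reads per library, those in several libraries, those of hosts with at least 2, those without a host symbol, mitochondrial ones, the 3 shortest and 3 longest spans, rows within 10 nt, those with a repeat of at least 6 nt, those sharing an end with a circRNA that has an identifier, at most 6 per list of hosts, and those in tables of the study's text. Some circRNAs that meet these rules are not reported here. circRNAs named for their splice signal, their distance from an edge, their UTR or their length were chosen after their values were seen. The lists cover mitosis, chromatin, phosphoinositide and mTOR signaling, ubiquitin and SUMO, RNA binding, actin and spectrin, membrane traffic, and markers of 11 cell types. Alternatives changed the minimum of reads, merged close rows, left out mitochondrial, globin and Gm10800 rows, widened the edge, and changed the scaling, the value for 0, the fold and the groups.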

Additional observations from a re-analysis of the deposited data

How the results depend on the processing

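The shares of types, ends at edges and junction reads, and the median length and span, stayed within their intervals under every alternative run for them (minimum reads, merged rows, rows left out, edges up to 5 nt wide, edges of any transcript). Against circBase alone, the share whose host gives a circRNA with an identifier was 3.64%, and the share with a common end 0.909%. With at least 10 reads C1 held 47 circRNAs without an identifier, while those in several libraries numbered 2 with at least 5 reads and 0 with at least 10. Calls higher in C1 than in B1 numbered 72 with 3 reads in place of 0 to 2, and 47 each with at least 10 reads or an interval beyond 2-fold. Calls higher in C1 than in A1 numbered 63, 47 and 35 under these settings. The lower count follows from their construction, since more reads are asked for. These settings were run on the circRNAs without an identifier alone, so no share of the whole table stands beside these counts. Scaling changed no count by over 1.5 times, and neither did any alternative on the calls of B1 against A1 within this assignment of groups.

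The study's tables assign the libraries to other groups. Under that assignment 47 circRNAs were higher and 51 lower in model + EA than in model. These were 21.4% and 23.2%, beside 22.6% and 25.9% of all 563 circRNAs. In model against normal 52 were higher and 123 lower, 23.6% and 55.9% beside 27% and 53.6%. In model + EA against normal 46 were higher and 122 lower, 20.9% and 55.5% beside 23.1% and 51.7%. These are the same pairs of libraries under other group names. Of the circRNAs called under both assignments, the direction was opposite for 46 and the same for 1 (model + EA against model), opposite for 54 and the same for 0 (model against normal), and opposite for 122 and the same for 2 (model + EA against normal).

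Added after the data were seen, a minimum of 5 or 10 reads left 7 and 7 circRNAs with the splice signal on the opposite strand and 7 and 5 on the host strand. Without mitochondrial and globin rows there were 6 and 6. Splice signals and repeats over all 220 were not run, since bases beside both ends could be read for only 26. No paired analysis was possible because each group has 1 library. At this depth a circRNA with under 3 reads cannot be told from one that is missing.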
